A study of Oryza sativa Japonica Group with 6 samples.

Results

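The genes that supply amino acids to the filling rice grain and assimilate its nitrogen were followed through 9 loci, chosen by name. These were the alanine aminotransferase AlaAT1 (LOC_Os10g25130), the cytosolic glutamine synthetases GS1;1 (LOC_Os02g50240), GS1;2 (LOC_Os03g12290) and GS1;3 (LOC_Os03g50490), the plastid glutamine synthetase GS2 (LOC_Os04g56400), the NADH-dependent glutamate synthases NADH-GOGAT1 (LOC_Os01g48960) and NADH-GOGAT2 (LOC_Os05g48200), the amino acid permease AAP6 (LOC_Os01g65670) and the lysine-degrading enzyme LKR/SDH (LOC_Os02g54254). Of these 9, 8 had a row among the 29907 mRNA gene rows of the expression table, and GS2 was not analysed here. The cytosolic glutamine synthetases are called GLN1-1, GLN1-2 and GLN1-3 from here on, the synonyms that RefSeq lists for GS1;1, GS1;2 and GS1;3.

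NingJing1, a Japonica rice cultivar, was sampled 10 days after pollination, and RNA was taken from its endosperm, where the grain stores starch and protein. Plants grown in the field until booting were then kept in a growth chamber, with days of 36 °C and nights of 33 °C for the high temperature group (3 samples) and days of 28 °C and nights of 25 °C for the normal temperature group (3 samples). Cultivar, tissue and stage were the same in both groups. The labels do not state whether the 3 samples of each group are from different plants, and the p-values therefore reflect only sample-to-sample spread, which may be technical.

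Ammonium enters organic form in the cycle of glutamine synthetase, which joins it to glutamate, and glutamate synthase (GOGAT), which passes the amide group of glutamine to 2-oxoglutarate and so yields glutamate. Aminotransferases then hand the amino group of glutamate on, AlaAT to pyruvate and aspartate aminotransferase to oxaloacetate. The grain receives most of its nitrogen as amino acids from the phloem, which permeases such as the AAP family carry into cells, and the endosperm lays it down as storage protein. LKR/SDH is a bifunctional enzyme that breaks down free lysine and so limits how much of it the grain keeps.

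Values were deposited as FPKM, which are scaled to transcript length and library total, so levels of different genes can be set side by side. They summed to between 365035 and 380742 per sample, and sequencing depth is unknown. Of 17050 mRNA genes tested, 35.8% were called (limma, adjusted p under 0.05), 13% as higher and 22.8% as lower at high temperature, and the groups did not overlap for 51.7%. The share of calls that were higher was 36.4% on the deposited scale and 47.3% after rescaling to the total without the 100 most abundant rows. In bulk tissue, fewer cells of a type and less RNA per cell cannot be told apart. All 5 starchy endosperm markers (GLUA2, GLUB1, GBSSI, BEIIb and BT1) had values above 0 in every sample, with summed FPKM of 33150 to 34110 at high and 27870 to 28650 at normal temperature. The storage protein genes GLUA2 and GLUB1, which make up most of this sum, were called higher, while the starch genes GBSSI, BEIIb and BT1 were called lower, at 35.7%, 26.1% and 22.7% of their normal temperature means (median log2 fold change of the 5 markers -1.49). The 5 green pericarp markers summed to between 114 and 150 FPKM at high and between 154 and 191 FPKM at normal temperature, and only CAB2R among them was called, with means of 35.9 and 74.1 FPKM, while the other 4 overlapped between the groups. The 5 embryo and aleurone markers with a row summed to between 838 and 938 FPKM at high and to 157, 615 and 115 FPKM in the 3 normal temperature samples, and none of these markers was at 0 in any sample. The part of either tissue in the results below was not tested.

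At high temperature, isoforms moved in opposite directions in both arms of the glutamine synthetase and glutamate synthase cycle, while AlaAT1, the most abundant of the 8 genes, did not pass the test. GLN1-3 rose 5.50-fold and NADH-GOGAT2 rose 9.67-fold in mean FPKM, GLN1-2 fell to 34.4% and NADH-GOGAT1 to 77.6% of their normal temperature means, and LKR/SDH rose 1.17-fold. GLN1-1 and AAP6 did not pass. Of the 8 genes, 3 were called higher and 2 lower, or 37.5% and 25%, against the 13% and 22.8% of all tested genes. NADH-GOGAT2 reached the minimum mean of 0.5 FPKM for testing only through its high temperature samples. The median log2 fold change was 0.09 over the 8 genes and -0.08 over all tested genes.

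**Figure D1:**
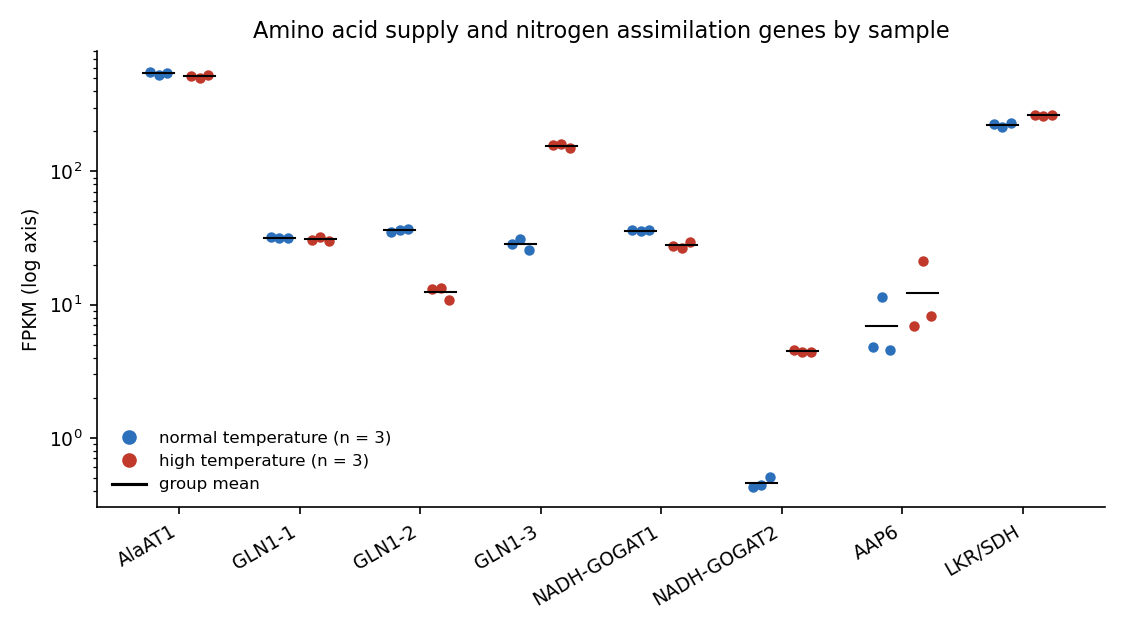
FPKM on a log axis of each of the 8 genes in the 3 normal temperature samples (blue) and the 3 high temperature samples (red), with a black line at each group mean. The groups of GLN1-2, GLN1-3 and NADH-GOGAT2 lie far apart, those of GLN1-1 and AAP6 overlap, and the AAP6 samples are the most scattered.

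AlaAT1 and LKR/SDH headed the order of levels at both temperatures. By mean FPKM over the 6 samples, AlaAT1 ranked 55 and LKR/SDH 108 among the 17050 tested genes, GLN1-3 ranked 305, and NADH-GOGAT2 ranked 10394. At normal temperature the order was AlaAT1, LKR/SDH, GLN1-2, NADH-GOGAT1, GLN1-1, GLN1-3, AAP6 and NADH-GOGAT2. GLN1-2 (35.40 to 36.87 FPKM) and NADH-GOGAT1 (35.45 to 36.28 FPKM) overlapped there, and no other neighbours in that order did. At high temperature GLN1-3 stood in place 3, behind LKR/SDH, followed by GLN1-1, NADH-GOGAT1, GLN1-2, AAP6 and NADH-GOGAT2. GLN1-2 (10.91 to 13.45 FPKM) lay within the range of AAP6 (6.96 to 21.25 FPKM) in that group, and the other neighbours did not overlap.

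The cytosolic glutamine synthetases make glutamine from ammonium and glutamate. GLN1-3, in rice the isoform known from spikelets, measured 158.25, 160.02 and 150.43 FPKM at high temperature, against 28.38, 30.96 and 25.88 FPKM at normal temperature. Every high temperature sample lay far above every normal temperature sample. Its mean went from 28.4 ± 2.54 to 156 ± 5.10 FPKM (SD, n = 3 per group), for a log2 fold change of 2.42 (standard error 0.07, limma, adjusted p = 4.1e-05). Only 79 of the 17050 tested genes had a larger log2 rise.

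GLN1-2, in rice the main isoform of ammonium assimilation in roots, moved the other way. It measured 13.15, 13.45 and 10.91 FPKM at high temperature, against 35.40, 36.63 and 36.87 FPKM at normal temperature. The groups were again apart, with high temperature low. The log2 fold change was -1.47 (standard error 0.09, adjusted p = 0.00028), and 223 tested genes had a larger fall.

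GLN1-1, the isoform whose loss in rice is known to impair growth and grain filling, measured 30.41, 32.11 and 30.23 FPKM at high temperature, against 32.12, 31.83 and 31.74 FPKM at normal temperature. The groups overlapped. Its log2 fold change was -0.04 with a 95% confidence interval from -0.15 to 0.06 (adjusted p = 0.45), and the sign turned under quantile normalization, trimmed-mean scaling and rescaling without the most abundant rows.

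Summed over the 3 isoforms, cytosolic glutamine synthetase rose from 96.6 ± 2.54 to 200 ± 7.25 FPKM (SD, n = 3), or 2.07-fold. The mean of GLN1-3 gained 128 FPKM, while that of GLN1-2 fell by 23.8 FPKM and that of GLN1-1 fell by 0.98 FPKM. At normal temperature the isoforms held similar shares of this sum, with means of 33.0% for GLN1-1, 37.6% for GLN1-2 and 29.4% for GLN1-3. At high temperature GLN1-3 held 78.4%, 77.8% and 78.5% in the 3 samples, GLN1-1 a mean of 15.5% ± 0.373 and GLN1-2 a mean of 6.25% ± 0.482 (SD, n = 3). A share within a sample does not depend on library scaling. Each of the 3 shares separated the groups without overlap, which gives the exact permutation test p = 0.1 (two-sided), the smallest value that 3 samples against 3 allow and also the value after Benjamini-Hochberg adjustment over the 5 quantities tested in this way. The 3 genes are paralogs, and how the authors' quantification divided reads that match more than a single copy was not stated in the sources used here.

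**Figure D2:**
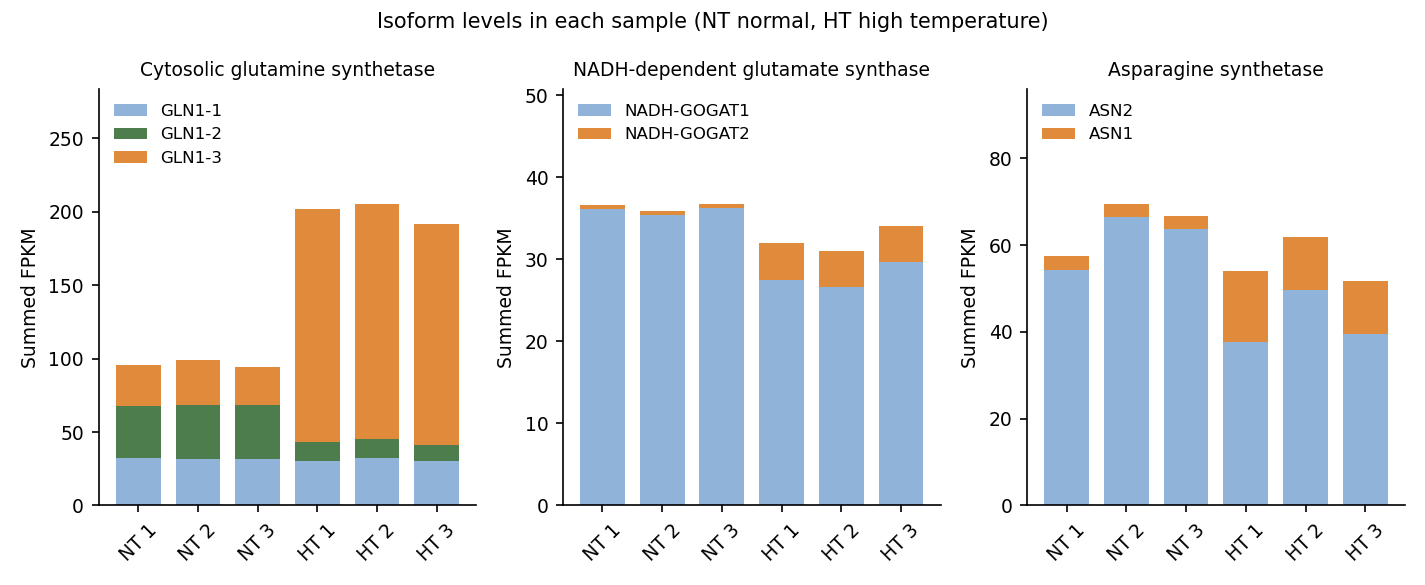
Stacked bars of FPKM per sample for the cytosolic glutamine synthetases (left), the NADH-dependent glutamate synthases (middle) and the asparagine synthetases (right), with normal temperature (NT) samples before high temperature (HT) samples. Bars start at 0 and share no scale between panels. GLN1-3 makes up 77.8% to 78.5% of the left bars at high temperature, and the summed glutamate synthases differ less between the groups than the summed glutamine synthetases.

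Glutamate synthase also shifted between its isoforms. NADH-GOGAT2, in rice known from mature leaves, measured 4.57, 4.38 and 4.40 FPKM at high temperature, against 0.43, 0.44 and 0.51 FPKM at normal temperature. The gene was near the bottom of the measured range at normal temperature and low, though clearly higher, at high temperature. The log2 fold change was 1.90 (standard error 0.06, limma, adjusted p = 4.1e-05), and 184 tested genes had a larger rise. Because this scale adds 1 FPKM before the logarithm, it understates a change from so low a level, and with 0.1 FPKM added the log2 fold change was 3.02.

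NADH-GOGAT1, in rice the isoform of roots and of vascular tissue in young grains, measured 27.46, 26.63 and 29.68 FPKM at high temperature, against 36.17, 35.45 and 36.28 FPKM at normal temperature. All high temperature samples were lower than all normal temperature samples. Its log2 fold change was -0.36 (standard error 0.05, adjusted p = 0.005), and 4298 tested genes, or 25.2%, had a larger fall. The isoforms together fell from 36.4 ± 0.474 to 32.4 ± 1.56 FPKM (SD, n = 3), and NADH-GOGAT1 held 98.7% ± 0.110 of the sum at normal and 86.2% ± 0.746 at high temperature (exact permutation p = 0.1, two-sided, the smallest possible). NADH-GOGAT1 thus still made up most of the NADH-dependent glutamate synthase mRNA at both temperatures. Fd-GOGAT (LOC_Os07g46460), the plastid enzyme that takes electrons from ferredoxin, fell from 16.8 ± 0.219 to 13.6 ± 0.516 FPKM, or -0.28 as log2 fold change (adjusted p = 0.0069).

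The cytosolic and NADH-dependent enzymes of the cycle were set against each other within each sample, without Fd-GOGAT or GS2. Summed cytosolic glutamine synthetase was 6.30, 6.63 and 5.62 times summed NADH-GOGAT at high temperature and 2.62, 2.77 and 2.57 times at normal temperature. The log2 ratio was 1.22 higher at high temperature, from 1.41 ± 0.0565 to 2.62 ± 0.122 (SD, n = 3), with no overlap of the groups (exact permutation p = 0.1, two-sided, the smallest possible).

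AlaAT1, which moves the amino group of glutamate to pyruvate and whose loss in rice is known to give a floury endosperm, measured 520.56, 506.25 and 527.00 FPKM at high temperature, against 563.41, 532.86 and 551.83 FPKM at normal temperature. All 3 high temperature samples were lower than the normal temperature samples, by a narrow margin. The means were 518 ± 10.6 and 549 ± 15.4 FPKM (SD, n = 3). The difference was -0.08 as log2 fold change, with a 95% confidence interval from -0.17 to 0.00 (limma, adjusted p = 0.11). That equals the median of all tested genes, and the sign turned to 0.13 under quantile normalization and to 0.02 after rescaling without the most abundant rows. AlaAT1 made up 50.5% ± 0.944 of the summed FPKM of the 8 genes at high and 60.1% ± 0.634 at normal temperature. LOC_Os10g25140, which has the next locus number and was listed as an alanine aminotransferase, was not analysed here.

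LKR/SDH measured 265.58, 259.01 and 265.52 FPKM at high temperature, against 227.51, 216.93 and 229.51 FPKM at normal temperature. The high temperature samples were all higher, and the groups were tight. The log2 fold change was 0.23 (standard error 0.03, limma, adjusted p = 0.0055), and 4157 tested genes, or 24.4%, had a larger rise. Set against LKR/SDH within each sample, AlaAT1 was between 1.96 and 1.99 times as abundant at high and between 2.40 and 2.48 times at normal temperature, a quantity chosen after the values were seen.

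Genes of lysine synthesis were measured beside LKR/SDH. Aspartate kinase AK1 (LOC_Os01g70300), which opens the pathway from aspartate, fell from 12.4 ± 0.260 to 6.38 ± 0.561 FPKM (SD, n = 3), or -0.86 as log2 fold change (adjusted p = 0.00074). The dihydrodipicolinate synthase DHDPS1 (LOC_Os04g18200) did not pass, with 0.23 as log2 fold change (95% confidence interval -0.03 to 0.50). The transcription factors RPBF and RISBZ1 are known in rice to activate the LKR/SDH promoter. RPBF (LOC_Os02g15350) measured 89.70, 91.79 and 92.85 FPKM at high temperature, against 157.01, 146.80 and 142.58 FPKM at normal temperature, or -0.69 as log2 fold change (adjusted p = 0.00045). RISBZ1 (LOC_Os07g08420) measured 31.65, 29.68 and 28.87 FPKM at high temperature, against 23.98, 23.59 and 41.48 FPKM at normal temperature, with overlap (adjusted p = 0.85).

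**Figure D3:**
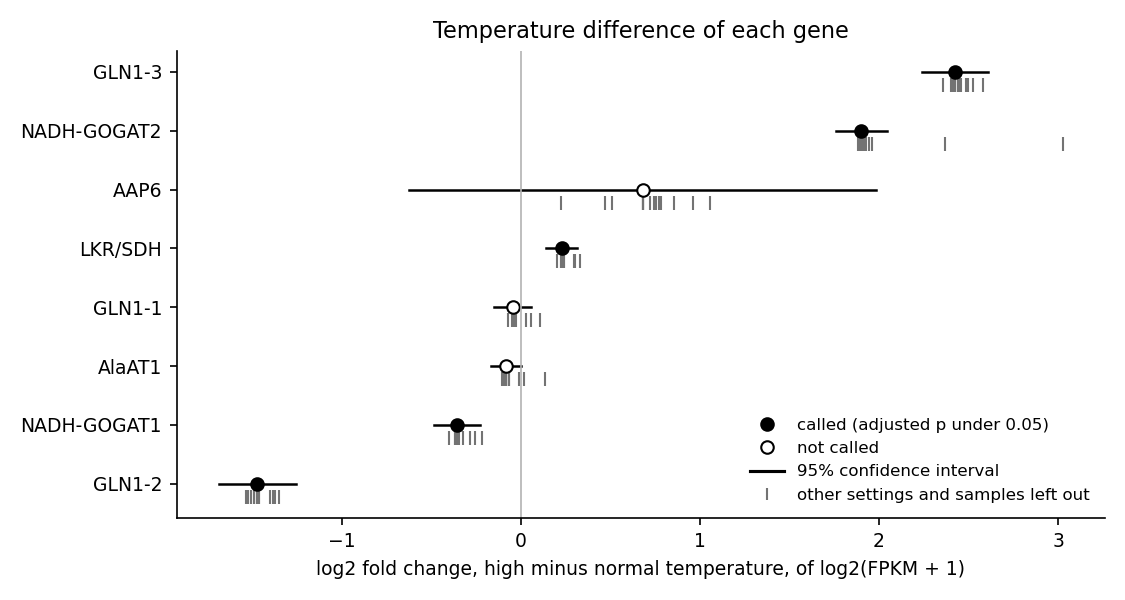
Log2 fold change of log2(FPKM + 1), high minus normal temperature, for the 8 genes, with the 95% confidence interval as a line and a filled point where the gene was called. Grey ticks under each point are the values under the other settings and with each sample left out. The ticks of GLN1-3, NADH-GOGAT2, LKR/SDH, NADH-GOGAT1 and GLN1-2 stay on the side of their point, and those of GLN1-1 and AlaAT1 fall on both sides of 0.

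AAP6, a permease whose level in rice is known to affect grain protein content, was the most variable of the 8 genes. It measured 6.96, 21.25 and 8.26 FPKM at high temperature, against 4.80, 11.44 and 4.53 FPKM at normal temperature. Sample 2 was the highest in each group, and the normal temperature sample 2 lay above high temperature samples 1 and 3. The coefficient of variation was 65.0% at high and 56.5% at normal temperature, against 1.43% to 11.1% and 0.623% to 9.48% for the other 7 genes. The log2 fold change of 0.68 had a 95% confidence interval from -0.63 to 1.99 (limma, adjusted p = 0.37). It was 0.22 without high temperature sample 2 and 1.06 without normal temperature sample 2, and neither passed.

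Other amino acid permeases did not move as a group. AAP1 (LOC_Os07g04180), the most abundant of 9 AAP genes, measured 32.91, 34.20 and 34.76 FPKM at high temperature, against 21.70, 44.57 and 38.52 FPKM at normal temperature. Normal temperature sample 1 was low, and the log2 fold change of 0.02 became -0.28 without it (adjusted p = 0.062). Summed over the 9 genes, AAP mRNA was 58.8 ± 7.91 FPKM at high and 54.5 ± 15.5 FPKM at normal temperature (SD, n = 3), and AAP6 held 13.3%, 31.4% and 14.6% of it at high and 12.5%, 16.5% and 8.14% at normal temperature. AAP3 (LOC_Os06g36180) rose from 4.43 ± 0.378 to 5.37 ± 0.0289 FPKM (adjusted p = 0.045) and AAP13 (LOC_Os04g39489) from 2.17 ± 0.149 to 2.73 ± 0.190 FPKM (adjusted p = 0.0496). The call of AAP13 was lost whichever sample was left out, and that of AAP3 was kept only without sample 1 of the normal temperature group (highest adjusted p 0.13 and 0.11). AAP8 (LOC_Os01g66010) fell from 0.857 ± 0.252 to 0.173 ± 0.0208 FPKM, or -0.65 as log2 fold change (adjusted p = 0.01) and -1.77 with 0.1 FPKM added in place of 1. AAP8 reached the minimum mean for testing only through its normal temperature samples and was not tested without sample 2 or 3 of that group.

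AAP4 (LOC_Os12g09300) and AAP10 (LOC_Os02g49060) did not pass, with log2 fold changes of -0.08 and -0.28, of which that of AAP10 passed without high temperature sample 1 (adjusted p = 0.032). AAP5 (LOC_Os01g65660), whose locus number is next to that of AAP6, and AAP7 (LOC_Os05g34980) lay under the minimum mean of 0.5 FPKM. AAP7 measured 0.08, 0.04 and 0.06 FPKM at high temperature, against 0.40, 0.37 and 0.44 FPKM at normal temperature. AAP5 measured 0.72, 0.44 and 0.38 FPKM at high temperature, against 0.26, 0.08 and 0.41 FPKM at normal temperature, with overlap. Reads may be shared between related AAP copies.

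**Figure D4:**
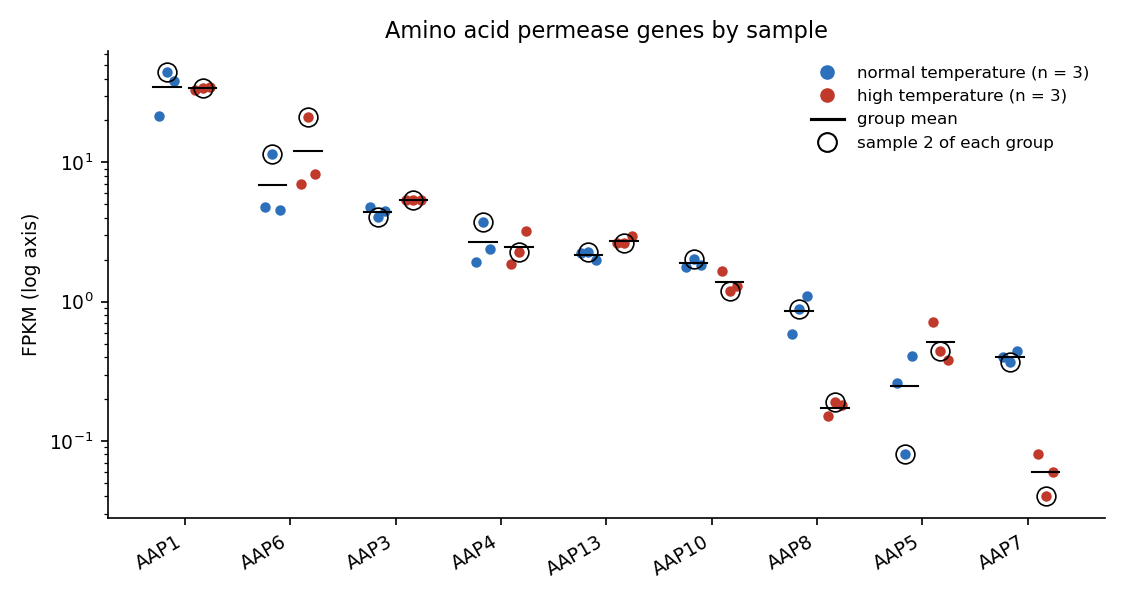
FPKM on a log axis of 9 amino acid permease genes in the 3 normal (blue) and 3 high temperature (red) samples, ordered by mean level, with a line at each group mean and a ring around sample 2 of each group. The ringed samples of AAP6, at 11.44 and 21.25 FPKM, are the highest of their groups, while those of AAP1 and AAP3 show no such pattern in both groups.

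A list of 39 other genes of nitrogen and amino acid metabolism was read from the same fit. Of these, 28 were tested, 9 lay under the minimum mean and 2 were not analysed here. On the deposited scale 6 were higher and 9 lower at high temperature, or 21.4% and 32.1% of the 28. Of all tested genes, 13% and 22.8% were. The median log2 fold change of the 28 was -0.01. The balance of calls depended on the scaling. It was 6 higher and 5 lower under quantile normalization, 8 and 7 under trimmed-mean scaling, and 9 and 6 after rescaling without the most abundant rows. Of all calls, 43.6%, 44.4% and 47.3% were higher under these scalings, against 36.4% on the deposited scale. The groups did not overlap for 21 of the 28, against 51.7% of all tested genes and 6 of the 8 genes above.

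Asparagine synthetase, which makes the transport amide asparagine, shifted between isoforms. ASN1 (LOC_Os03g18130) measured 16.21, 12.19 and 12.13 FPKM at high temperature, against 3.35, 2.97 and 3.12 FPKM at normal temperature, for a log2 fold change of 1.80 (standard error 0.12, limma, adjusted p = 0.00049). ASN2 (LOC_Os06g15420) measured 37.75, 49.73 and 39.53 FPKM at high temperature, against 54.17, 66.57 and 63.63 FPKM at normal temperature, or -0.53 as log2 fold change (adjusted p = 0.029). ASN1 was higher and ASN2 lower in every high temperature sample. ASN1 held 24.4% ± 5.24 of the summed asparagine synthetase at high and 4.92% ± 0.806 at normal temperature, while the sum was 55.9 ± 5.38 and 64.6 ± 6.29 FPKM (SD, n = 3). The call of ASN2 was lost when high temperature sample 1 or 3 was left out, or sample 2 or 3 of the normal temperature group (adjusted p between 0.082 and 0.088). It was also lost under the 3 other scalings (adjusted p between 0.0505 and 0.06). The glutamate dehydrogenase genes GDH1 and GDH2 did not pass, and GDH3 lay under the minimum mean.

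Aminotransferase genes fell where they changed. Of 5 tested on this list, which leaves out AlaAT1, 4 were called lower and none higher, where 22.8% of all tested genes were called lower. AlaAT1 did not pass. The largest fall was in the aspartate aminotransferase gene LOC_Os02g14110, which measured 77.13, 64.06 and 76.95 FPKM at high temperature, against 133.54, 155.25 and 134.83 FPKM at normal temperature, or -0.95 as log2 fold change (adjusted p = 0.0018). The most abundant of these 5, the aspartate aminotransferase gene LOC_Os01g55540, fell from 359 ± 17.9 to 291 ± 14.2 FPKM (log2 fold change -0.30, adjusted p = 0.0099). LOC_Os02g55420 fell by 0.21 on the log2 scale, and the alanine aminotransferase gene LOC_Os07g42600 fell from 17.6 ± 0.855 to 11.8 ± 0.785 FPKM, or -0.54 as log2 fold change (adjusted p = 0.0028). The call of LOC_Os01g55540 was lost under quantile normalization and with the replicate block (limma, adjusted p = 0.0522 with the block). That of LOC_Os02g55420 was lost under quantile normalization and after rescaling without the most abundant rows. Summed over 4 genes, aspartate aminotransferase mRNA was 426 ± 14.4 FPKM at high and 564 ± 14.1 FPKM at normal temperature (SD, n = 3).

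In proline and GABA metabolism, P5CS1 (LOC_Os05g38150), which makes the proline precursor from glutamate, rose from 22.6 ± 1.49 to 35.4 ± 2.79 FPKM (SD, n = 3), or 0.62 as log2 fold change (limma, adjusted p = 0.0032). The glutamate decarboxylase gene GAD3 (LOC_Os03g13300), named after its values were seen, measured 1.85, 1.97 and 2 FPKM at high temperature, against 0.34, 0.12 and 0.37 FPKM at normal temperature (adjusted p = 0.00081). It, too, reached the minimum mean only through its high temperature samples. The more abundant GAD1 (LOC_Os08g36320) measured 28.75, 16.95 and 27.16 FPKM at high temperature, against 17.54, 16.95 and 10.53 FPKM at normal temperature. Its groups overlapped and it did not pass (limma, adjusted p = 0.13). GAD2 lay under the minimum mean. The ornithine aminotransferase gene OAT (LOC_Os03g44150) fell by 0.32 on the log2 scale (adjusted p = 0.0478), a call that was kept only when the sample left out was normal temperature sample 2, and that was lost under each of the 3 other scalings. Of the 3 tested genes of nitrate and ammonium entry, the nitrite reductase gene NiR1 (LOC_Os01g25484) rose from 2.84 ± 0.760 to 6.20 ± 1.01 FPKM, or 0.92 as log2 fold change (adjusted p = 0.015). That call was lost with the replicate block (limma, adjusted p = 0.0514). The nitrate reductase genes NIA1, NIA2 and NR2 lay under 1 FPKM in all 6 samples. Their means at high and normal temperature were 0.92 and 0.54 FPKM for NIA1, 0.53 and 0.30 for NIA2, and 0.14 and 0.06 for NR2. NIA1 did not pass (limma, adjusted p = 0.061), and NIA2 and NR2 lay under the minimum mean.

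**Figure D5:**
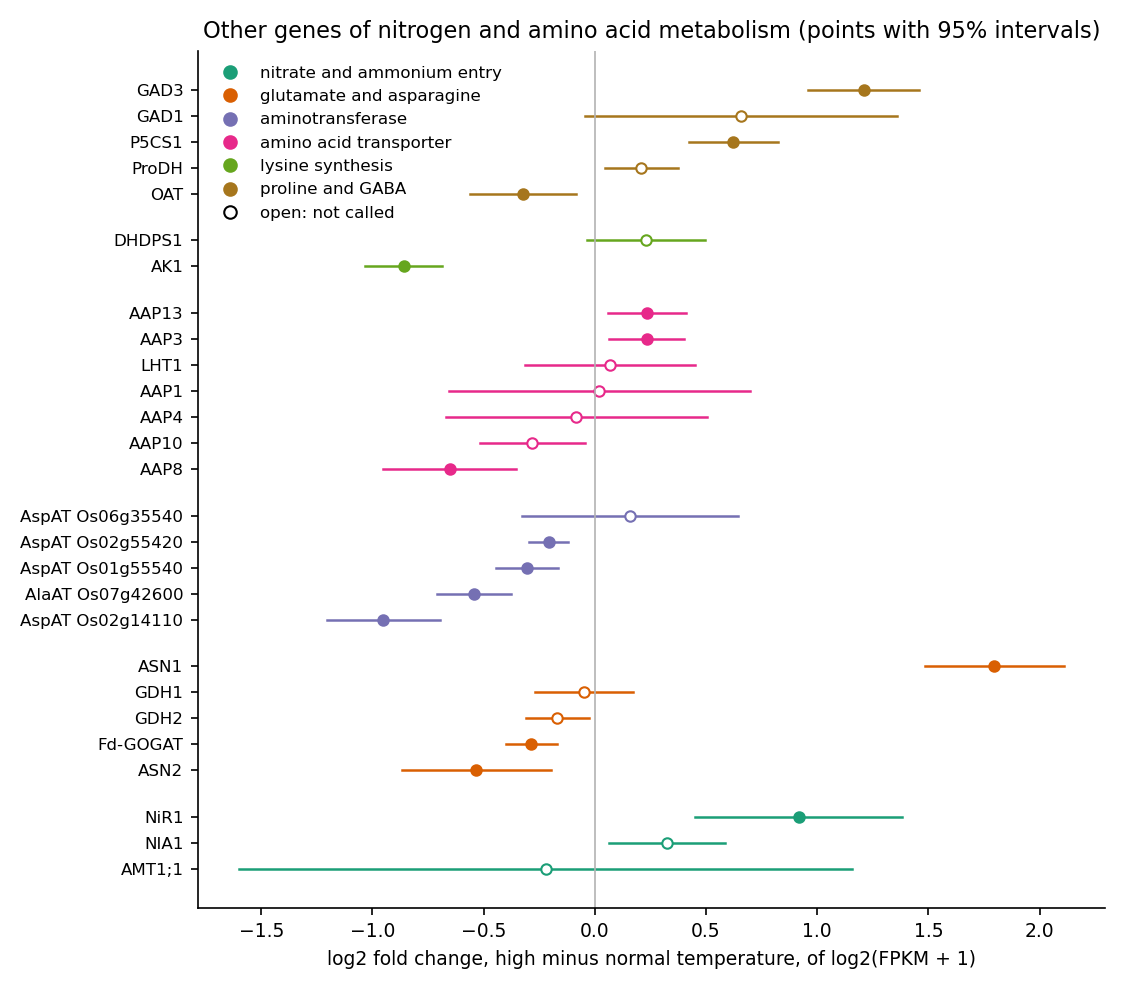
Log2 fold change of log2(FPKM + 1), high minus normal temperature, with 95% confidence intervals, for the tested genes of the wider list, of which 1 is not drawn, coloured by role. Filled points were called. ASN1 and GAD3 lie farthest to the right, and the 4 called aminotransferase genes all lie to the left of 0.

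The genes most like each of the 8 were found by the Euclidean distance between log2(FPKM + 1) values centred on their mean over the 6 samples. Since most of a profile is the difference between the groups, such a distance mainly says that genes changed by a similar amount. Among the 35 other tested genes of both lists, GLN1-3 lay nearest to NADH-GOGAT2 (distance 0.68), NADH-GOGAT2 nearest to ASN1 (0.33), and NADH-GOGAT1 nearest to Fd-GOGAT (0.20). LKR/SDH lay nearest to AAP3 (0.10), AlaAT1 to GDH2 (0.13), GLN1-1 to AlaAT1 (0.13), and GLN1-2 to the aspartate aminotransferase gene LOC_Os02g14110 (0.76). AAP6, at 1.31 from its nearest gene LOC_Os06g35540, had no close neighbour in these lists. None of these listed neighbours was the nearest over all tested genes. For NADH-GOGAT2, 47 tested genes lay nearer than ASN1, the fewest for any of the 8. For GLN1-3, 59 lay nearer than NADH-GOGAT2, and for NADH-GOGAT1, 1067 lay nearer than Fd-GOGAT, the most.

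Over all tested genes, GLN1-3, which had the largest log2 fold change of the 8 on the log2(FPKM + 1) scale (with 0.1 FPKM added, that of NADH-GOGAT2 was larger), lay nearest to RAB16A (LOC_Os11g26790, distance 0.15), a dehydrin gene and a member of the embryo and aleurone markers. RAB16A measured 141.83, 162.42 and 146.31 FPKM at high temperature, against 27.23, 28.35 and 25.84 FPKM at normal temperature. LOC_Os01g03360 was the next nearest (0.16), at 1118.98, 1100.73 and 1031.19 FPKM at high temperature, against 208.07, 224.18 and 208.72 FPKM at normal temperature. OLE16b, also an embryo and aleurone marker, measured 648.76, 656.43 and 678.88 FPKM at high temperature, against 112.16, 569.13 and 74.31 FPKM at normal temperature. It did not pass (limma, adjusted p = 0.11). EMP1, another of these markers, had 131.93 FPKM in high temperature sample 1, against at most 5 FPKM in the other samples. VP1 rose from 13.3 ± 0.289 to 14.9 ± 0.188 FPKM (SD, n = 3, adjusted p = 0.04), and OSH1 lay between 0.52 and 0.66 FPKM in all 6 samples and did not pass.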

How the data were processed

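Expression was deposited by the authors as FPKM per gene and sample, rounded to 2 decimals, per the file headers. Per the submitters' processing notes, the tools included StringTie 1.3.0, HISAT2 2.0.4, FastQC 0.10.1 and cutadapt 1.10, with no step named. The sources used here give no genome build, annotation or strand setting, so antisense reads may be included. FPKM are not read counts, so no count model, counting interval or detection limit was computed.

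Log2(FPKM + 1) of mRNA rows with a mean of at least 0.5 FPKM was fitted in R 4.3.3 with limma 3.58.1, with an intensity trend in the prior variance, no replicate block, two-sided, and Benjamini-Hochberg adjustment at 0.05 over all tested rows. The steps were tested on data made with known differences. Shares within a sample were compared with SciPy 1.17.1 by exact permutation.

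Genes and lists were chosen with earlier results of these data known. Symbols were paired with identifiers by hand. Of 66 names, RefSeq (ASM3414082v1) held 20 once, all on the identifier's chromosome, with 20 of 21 pairs in the same order. AlaAT1, the NADH-GOGAT genes, AAP6 and LKR/SDH were not among them. Named genes were the 9 members, listed genes called with a group mean of at least 5 FPKM, relatives of a member, RPBF, RISBZ1, tissue markers and nearest genes. DHDPS1, GAD1, GAD2, GAD3, GDH1, GDH3, NIA1, NIA2 and NR2 fall outside this rule and were named after their values were seen. The authors' starch, lncRNA and lncRNA-mRNA crosstalk tables were not used. Only the starch table holds LOC identifiers, 6 in all, and none is of the 9 genes. The others could not be searched by identifier. One of the 39 other listed genes is counted but not reported here. In all, 15 other settings were tried.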

Additional observations from a re-analysis of the deposited data

How the results depend on the processing

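The calls of GLN1-3, NADH-GOGAT2 and LKR/SDH as higher and of GLN1-2 and NADH-GOGAT1 as lower kept their direction and stayed past the threshold in all 15 other settings (2 pseudocounts, 2 filters, 3 scalings, the replicate block, no variance trend and each sample left out). The sign of genes that never passed turned for AlaAT1 (0.13 under quantile normalization, 0.018 after rescaling without the 100 most abundant rows) and for GLN1-1 (0.106 and 0.056 under these, 0.03 under trimmed-mean scaling). With each sample left out, log2 fold changes ranged from -0.28 to 0.22 for AAP1, from -0.24 to 0.11 for AAP4 and from -0.007 to 0.255 for LOC_Os06g35540. A minimum mean of 2 FPKM lowered the mRNA genes called higher from 2222 to 1433, with fewer genes tested (11450). Quantile normalization lowered the count of the 39 other genes called lower from 9 to 5 (the cause was not tested). Over all tested genes, same-numbered samples did not deviate together (correlations of -0.02, 0.00 and 0.00). Such correlations show no broad shared effect, but cannot settle whether the numbers pair the samples. With the replicate block 1657 mRNA genes were higher and 2910 lower, 3 of the 39 genes were higher in place of 6, and AAP6 passed (log2 fold change 0.68, adjusted p = 0.029). Isoform shares and the log2 ratio of summed cytosolic glutamine synthetase to summed NADH-GOGAT were also compared under quantile normalization or with each sample left out. Their group differences moved by less than the SD pooled over both groups (47.9 to 49.8 percentage points for GLN1-3, 1.17 to 1.28 for the ratio). The move was not always less than the SD of the tighter group. Depth is unknown, so the precision of low genes such as NADH-GOGAT2 at normal temperature cannot be stated.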
